A study of Mus musculus with 6 samples.

Results

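Potassium channel genes were described in heart tissue of WT and Zeb2 cKO mice 14 days after myocardial infarction (MI). The members are the protein-coding genes whose symbol is Kcn followed by a letter and that had a sum of at least 60 counts over the 6 libraries. Of 92 such genes considered, 44 reached this sum, within a table of 38293 genes. Of the other 48, 37 had some counts and 11 had 0 counts. Just above the limit were Kcnk5 with 76 counts and Kcne3 with 79 counts, and just below it were Kcnh1 with 55 counts and Kcnab3 and Kcne1l with 50 counts each.

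Potassium channels let potassium ions leave the cardiomyocyte along their gradient, and they set the resting potential and end each action potential. Voltage-gated alpha subunits (Kv) open on depolarisation, and in the mouse ventricle they carry the transient outward and the delayed rectifier currents that make repolarisation fast. Inward rectifiers (Kir) hold the resting potential or couple it to G proteins or to ATP, two-pore-domain channels (K2P) carry background currents, and calcium- or sodium-activated channels open with the concentration of those ions inside the cell. Accessory subunits do not form the pore but alter the gating and trafficking of the channels they bind. The 44 members comprised 14 Kv alpha subunits, 4 KCNQ and ether-a-go-go channels, 7 accessory subunits of voltage-gated channels, 7 inward rectifiers, 5 K2P channels and 7 calcium- and sodium-activated channels, including 1 accessory subunit of the latter (Kcnmb1).

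Potassium channel pores have a short selectivity filter, the part of the pore that lets potassium through, and its codons are shown because members of every pore-forming class hold them. The coding sequence of each member was searched for a threonine followed by valine, isoleucine or leucine, then glycine, tyrosine or phenylalanine, and glycine. Of the 31 pore-forming members outside the K2P class 26 held 1 match, and Kcnh2, Kcnj14, Kcnn1, Kcnn2 and Kcnn3 held none. The search requires a threonine first and these residues after it, so a gene without a match need not lack a filter. Of the 5 K2P channels 4 held 2 matches and Kcnk6 held 1, while the 8 accessory subunits held 0. The codons below come from GRCm38 with the Gencode M21 annotation and are given 5′ to 3′ on the coding strand, with the fourth codon, for tyrosine or phenylalanine, in capitals.
Kcnj2 (chr11:111072207-111072221, plus strand): accattggcTATggt
Kcnj5 (chr9:32322559-32322573, minus strand): accattgggTATggc
Kcnj11 (chr7:46099496-46099510, minus strand): accattggtTTCggc
Kcnq1 (chr7:143191432-143191446, plus strand): accattggcTACggg
Kcna4 (chr2:107296495-107296509, plus strand): actgtgggcTATggg
Kcnd2 (chr6:21217406-21714141, plus strand, codons split by an intron): acactggggTATggc
Kcnk3, first filter (chr5:30588593-30621898, plus strand, codons split by an intron): accatcggcTATggt
Kcnk3, second filter (chr5:30622202-30622216, plus strand): accatcggcTTCggc
Kcnj2 and Kcnj5 carried the tyrosine codon and Kcnj11, the pore of the ATP-sensitive channel, a phenylalanine codon. In Kcnk3 the first filter held tyrosine and the second phenylalanine. An intron split the filter codons in Kcnd1, Kcnd2 and Kcnd3 and in the first match of all 5 K2P members.

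RNA-seq was available for 3 WT and 3 Zeb2 cKO libraries of heart tissue, and GEO's labels number them 1 to 3 within each group. All mice were adults on a backcrossed C57BL/6J background with a permanent occlusion of the left anterior descending artery, and the tissue was collected 14 days later. The group labelled WT carried the floxed Zeb2 allele (Zeb2 fl/fl) without Cre, and the Zeb2 cKO group carried the same allele with Cre recombinase under the cardiomyocyte promoter Myh6. The labels place the tissue in the border region of the infarct, whereas the methods of the study name the remote zone. Deletion is limited to cardiomyocytes while the RNA came from all cells of the tissue, and nothing in the labels links a WT mouse to a Zeb2 cKO mouse. The comparison asks which potassium channel transcripts differ when cardiomyocytes lack Zeb2, a zinc finger repressor that binds E-box sequences.

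Total counts ranged from 37288174 to 51136331 per library, of which 60.5% to 67.0% fell on mitochondrially encoded genes, leaving 14301225 to 19024394 counts. Zeb2 was at 61.3, 116 and 71.9 CPM, counts scaled to a common library size with edgeR's TMM factors, in WT 1, WT 2 and WT 3, and at 59.5, 72.5 and 66.4 CPM in Zeb2 cKO 1, 2 and 3. The groups overlapped, with a log2 fold change from WT to Zeb2 cKO of -0.33 (standard error, SE, 0.25, adjusted p = 0.957 from edgeR, exact permutation p = 0.5, two-sided) and of -0.0058 without WT 2, so that the deleted gene itself was not detectably lower in these libraries. The study itself reports the loss of ZEB2 from cardiomyocytes of Zeb2 cKO mice by qPCR and immunofluorescence. WT 2 stood apart from the other 5 libraries. The summed CPM of 10 cardiomyocyte markers was 34620 in WT 2 and 55210 to 67110 in the others, that of 10 fibroblast markers was 10240 against 1705 to 2459, and that of 10 macrophage markers was 783 against 197 to 273. In Zeb2 cKO 2 the atrial genes Myl7 and Myl4 were at 7.26 and 8.06 CPM, against at most 1.23 and 3.07 in the others. Log2 fold changes of the members named are therefore given with and without WT 2.

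Levels of different genes were compared per length, as RPKM, the CPM divided by the length of the merged exons in kilobases. Kcnip2, the KChIP2 subunit of the fast transient outward channel, and Kcnk3, the TASK-1 background channel, had the highest levels. Kcnip2 was at 17.0, 7.78 and 13.2 RPKM in WT 1 to 3 and at 18.7, 17.2 and 10.7 RPKM in Zeb2 cKO 1 to 3. Kcnk3 was at 16.3, 7.67 and 15.6 RPKM in the WT libraries and at 16.2, 13.2 and 15.4 RPKM in the Zeb2 cKO libraries. Their means over 6 libraries, 14.1 ± 4.28 and 14.1 ± 3.32 RPKM (SD, n = 6), could not be ranked against each other within this spread. Kcnj2 (Kir2.1, the main carrier of the resting inward rectifier current, 7.12 ± 1.70 RPKM) and Kcng2 (a silent Kv subunit that modifies other Kv channels, 6.53 ± 1.93 RPKM) followed, again within each other's SD.

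The next places were held by Kcnq1, the pore of the slow delayed rectifier (4.83 ± 1.74 RPKM), Kcnj5, a subunit of the acetylcholine-activated channel (4.31 ± 1.52 RPKM), Kcnh2, the pore of the rapid delayed rectifier (3.62 ± 1.30 RPKM), Kcnj11, the pore of the ATP-sensitive channel (3.51 ± 1.17 RPKM), and Kcna5, the Kv1.5 alpha subunit (3.48 ± 1.68 RPKM). Kcnj3, the partner of Kcnj5, was at 3.13 ± 0.86 RPKM, Kcnd2, the Kv4.2 alpha subunit, at 2.46 ± 0.99 RPKM and Kcnj12 (Kir2.2) at 2.41 ± 0.66 RPKM (SD, n = 6). Neighbours in this order from Kcnq1 to Kcnj12 differed by less than their SD. These 12 genes held 82.3% of the summed RPKM of all members, 17 members had a mean over 1 RPKM and 10 a mean under 0.1 RPKM. With the length of the longest transcript in place of the merged exons, 11 of the 12 genes remained and Kcnt2 took the place of Kcnd2. Of the 17 members over 1 RPKM, 15 had their lowest level in WT 2. Kcnt2, a sodium-activated channel, and Kcne4, an accessory subunit that inhibits Kv channels, were the exceptions, with 4.40 and 4.99 RPKM in WT 2 and 1.35 to 1.94 and 0.89 to 1.30 RPKM in the other 5 libraries.

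**Figure D1:**
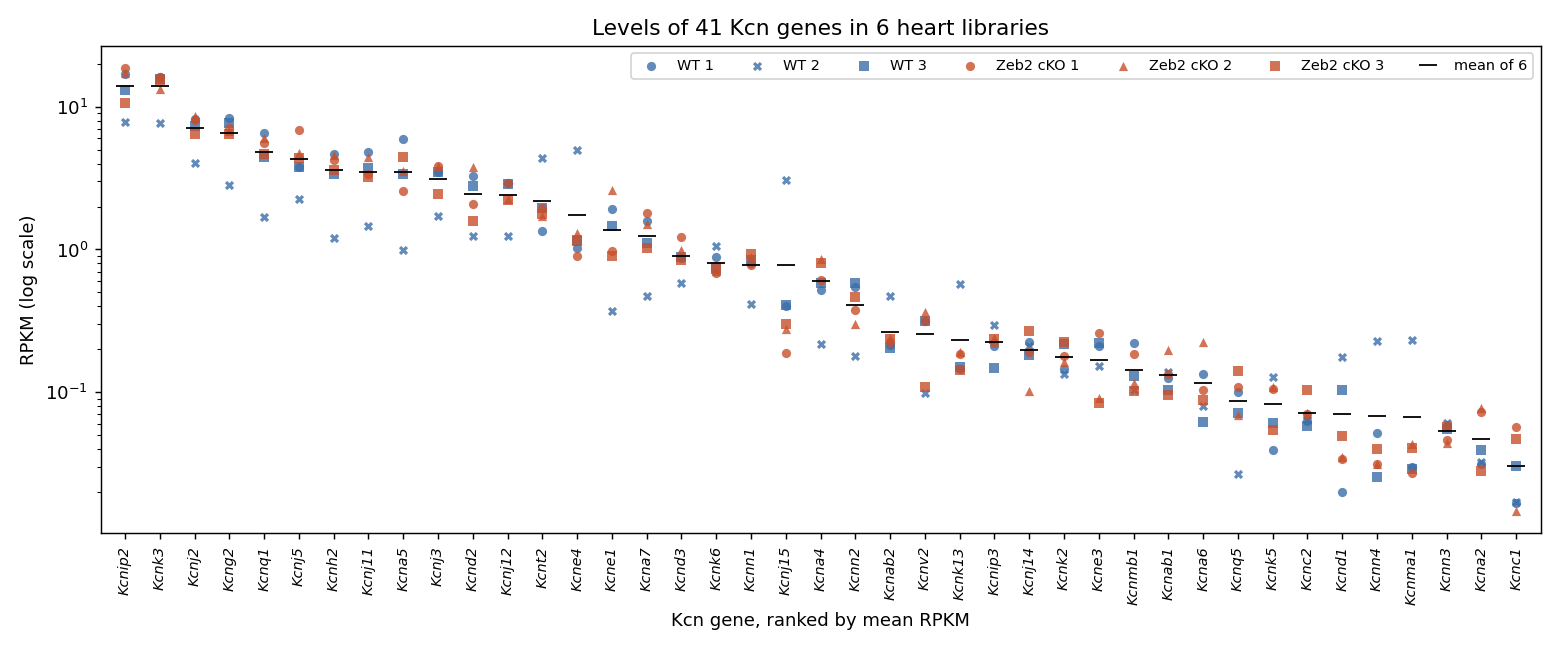
RPKM (log axis) of 41 Kcn genes in each of the 6 libraries, ranked from left to right by the mean (black bar), with WT libraries in blue and Zeb2 cKO libraries in red. Kcnip2 and Kcnk3 lead with a mean of 14.1 RPKM, and WT 2 (blue crosses) is the lowest point in 14 of the 16 genes drawn over 1 RPKM.

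By class, the inward rectifiers had the highest mean of the summed RPKM, with 23.8, 14.0 and 21.7 in WT 1 to 3 and 25.5, 24.4 and 19.3 in Zeb2 cKO 1 to 3. As a share of the RPKM of all members this was 25.1% ± 1.12 in WT and 25.7% ± 1.10 in Zeb2 cKO (SD, n = 3). Kv alpha subunits took 19.2% ± 4.96 and 20.0% ± 1.71, accessory subunits 22.2% ± 3.74 and 20.9% ± 3.34, K2P channels 18.3% ± 1.15 and 18.2% ± 2.95, and KCNQ and ether-a-go-go channels 9.25% ± 3.14 and 11.5% ± 0.503. The ranges of the groups overlapped in every class. Calcium- and sodium-activated channels took 3.08% to 4.33% in 5 libraries and 10.5% in WT 2, where Kcnt2 was high. All members together summed to 99.5, 53.8 and 85.3 RPKM in WT and to 95.3, 94.6 and 78.5 RPKM in Zeb2 cKO, so that WT 2 was the low library and the groups overlapped.

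**Figure D2:**
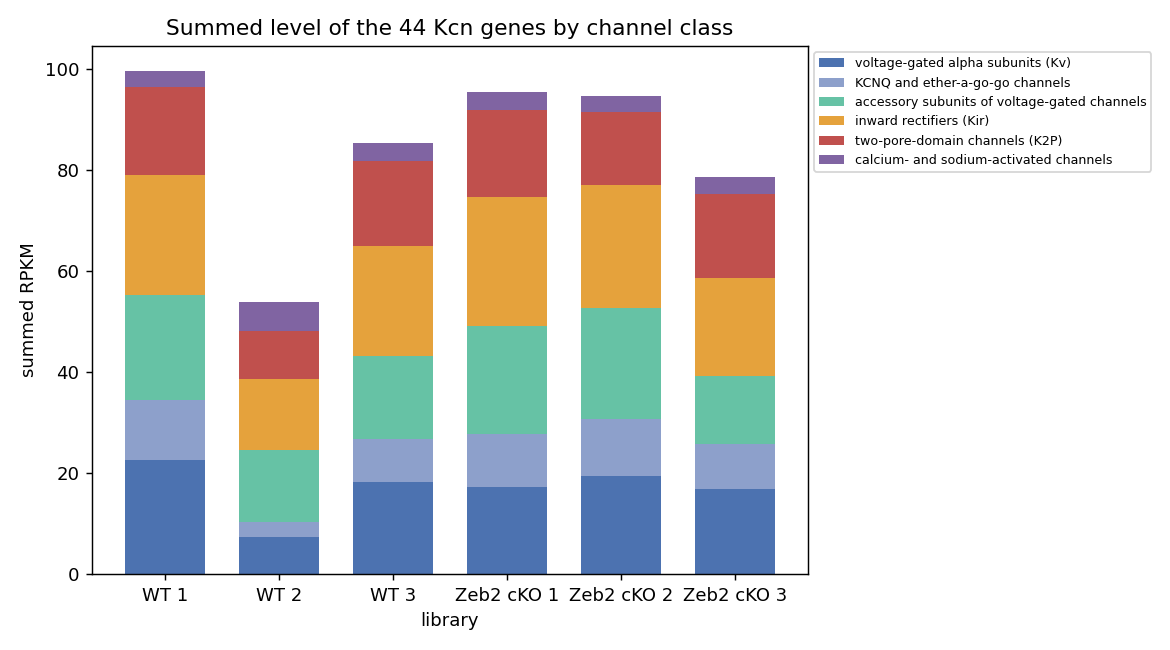
Summed RPKM of the 44 Kcn genes in each library, stacked by channel class. The 5 libraries other than WT 2 reach 78.5 to 99.5 RPKM and WT 2 reaches 53.8 RPKM, of which inward rectifiers hold 14.0 RPKM.

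For the comparison of genotypes, 14746 genes passed edgeR's default filter, and p-values of its quasi-likelihood F-test were adjusted after Benjamini and Hochberg across all of them. Of the 44 members 43 were tested, and 0 passed an adjusted p of 0.05, as for all genes (0% lower and 0% higher in Zeb2 cKO). The lowest adjusted p of a member was 0.957, whereas at an unadjusted p under 0.05 there were 1 lower and 1 higher member, Kcnj15 and Kcnj5, beside 0.861% and 1.04% of all tested genes. DESeq2 likewise called 0 members, with 3 at an unadjusted p under 0.05, Kcnj5, Kcnj15 and Kcna4, beside 1.78% of the 24089 genes with a DESeq2 p. A log2 fold change over 0.2 was found in 22 members (15.9% of all tested genes), one under -0.2 in 10 (22.6% of all tested genes) and 11 lay between. The median was 0.20 over the members and -0.0069 over all tested genes.

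These counts depended on WT 2. That library was the lowest of the 6 for 24 members (34.7% of all tested genes) and the highest for 12 (35.1%). Among these 12, Kcnn4, Kcnd1 and Kcnk5 reached the limit on the count sum only with their 51, 41 and 19 counts in WT 2. Their place among the members highest in WT 2 therefore follows in part from how members were chosen. Without WT 2 the median of the members was 0.033, with 13 over 0.2 (14.2% of all tested genes) and 10 under -0.2 (11.7%). Scaling each library to the 10 cardiomyocyte markers, an alternative chosen after seeing the data, moved the median of all tested genes to -0.26 and that of the members to 0.047, with 12 members over 0.2 (5.19% of all tested genes), 14 under -0.2 (59.2%) and 2 without overlap of the groups (2.71%). It turned the medians of the accessory subunits from 0.09 to -0.25 and of the K2P channels from 0.18 to -0.18. The cardiomyocyte markers had a median log2 fold change of 0.16 with all 6 libraries and -0.083 without WT 2. The macrophage and fibroblast markers had medians of -0.86 and -1.22, and 0.049 and -0.0049 without WT 2. How far this mix of cells sets the values of the members was not tested, and in whole tissue fewer cells of a type and less RNA per cell cannot be told apart.

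**Figure D3:**
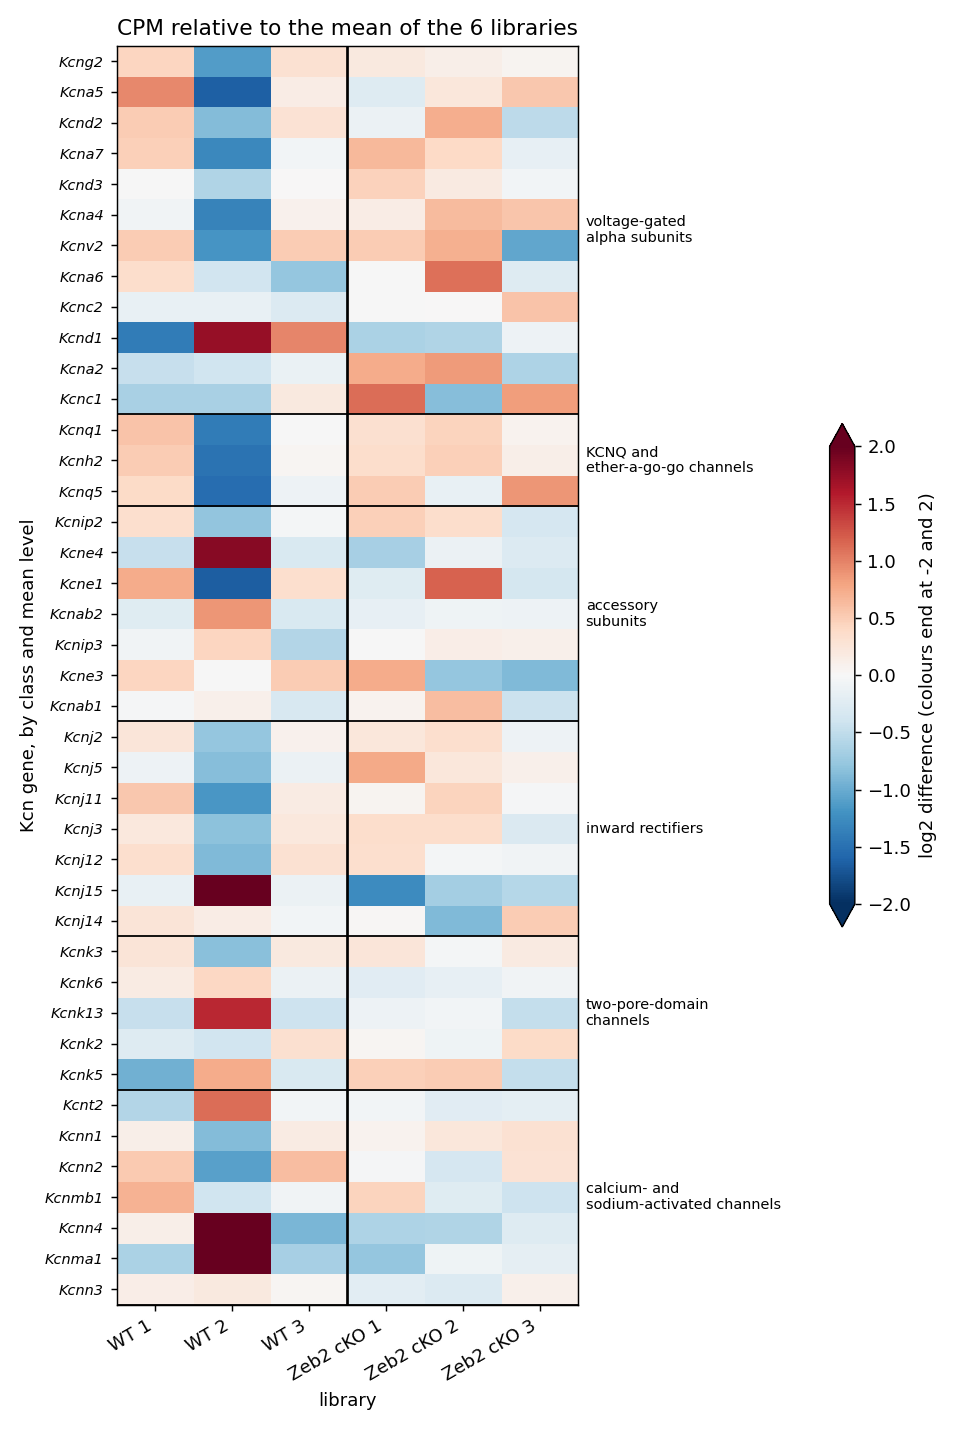
Log2 difference of the CPM of 41 members from the mean over 6 libraries (colour scale from -2 to 2), by class and mean level, with the 3 WT libraries left of the line and the 3 Zeb2 cKO libraries right of it. The WT 2 column is the lowest of 6 for 21 of these and the highest for 12. Of the latter, Kcnn4, Kcnd1 and Kcnk5 are members only through their counts in WT 2.

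Groups without overlap, with every library of 1 group above every library of the other, were found for 3 higher members, Kcnj5, Kcna4 and Kcnc2 (3.39% of all tested genes), and for 1 lower member, Kcnj15 (2.98%). None passed the adjusted threshold. The ranges of the other 40 members overlapped. When WT 2 was left out, 5 members were higher without overlap, namely these 3 with Kcnab2 and Kcnip3 (8.07% of all genes then tested), and 3 were lower, Kcnj15, Kcnn2 and Kcng2 (7.5%). At an unadjusted p under 0.05 from edgeR without WT 2, Kcnj5 and Kcna4 were higher (1.55% of all genes then tested) and Kcnj15, Kcnn2 and Kcng2 lower (1.08%), and 0 members passed the adjusted threshold.

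**Figure D4:**
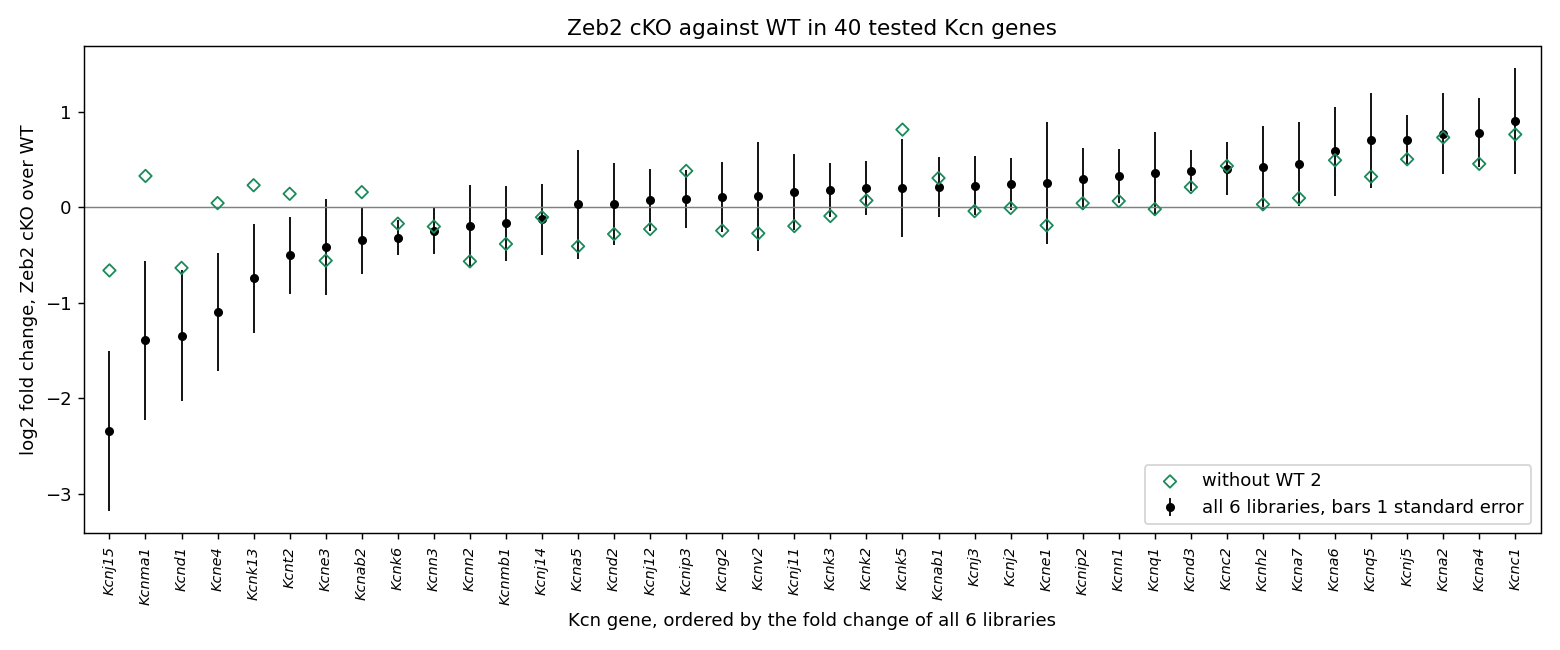
Log2 fold change (Zeb2 cKO over WT) of 40 tested members, ordered by value, with all 6 libraries (black, bars 1 standard error) and without WT 2 (open diamonds). Values run from -2.34 (Kcnj15) to 0.91 (Kcnc1), and the median of all 43 tested members goes from 0.20 to 0.033 without WT 2.

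Among the inward rectifiers, Kcnj5 (ENSMUSG00000032034, chr9:32314707-32344350, minus strand, GRCm38) encodes Kir3.4, which forms the muscarinic potassium channel with the product of Kcnj3. Kcnj5 was at 17.8, 10.6 and 17.6 CPM in WT 1 to 3 and at 32.3, 22.3 and 20.6 CPM in Zeb2 cKO 1 to 3. Every Zeb2 cKO library was above every WT library. The means were 15.3 ± 4.08 and 25.1 ± 6.28 CPM (SD, n = 3), with a log2 fold change of 0.71 (SE 0.26, unadjusted p = 0.028 and adjusted p = 0.957 from edgeR). The exact permutation p was 0.1, the smallest that 3 against 3 libraries allow. Without WT 2 the log2 fold change was 0.50 (edgeR, unadjusted p = 0.033). Kcnj3 was at 18.1, 8.90 and 18.1 CPM and at 20.0, 20.0 and 12.8 CPM, with overlapping groups and a log2 fold change of 0.23 (-0.038 without WT 2). The ratio of Kcnj5 to Kcnj3 in RPKM was 1.10, 1.33 and 1.08 in WT and 1.79, 1.24 and 1.80 in Zeb2 cKO, so that Zeb2 cKO 2 lay within the WT range. Kcnj3 shares 31.1% of its exon length with the antisense gene Gm26794, and how the counting treated strand is not given in the sources used here.

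Kcnj15 (ENSMUSG00000062609, chr16:95257558-95300260, plus strand) encodes Kir4.2, an inward rectifier best known from epithelia. It was at 2.52, 19.3 and 2.58 CPM in WT 1 to 3 and at 1.18, 1.75 and 1.90 CPM in Zeb2 cKO 1 to 3. All Zeb2 cKO libraries were below all WT libraries, and WT 2 was 7.67-fold above the lowest WT library, while the Zeb2 cKO libraries differed 1.61-fold. The log2 fold change was -2.34 (SE 0.84, unadjusted p = 0.027 and adjusted p = 0.957 from edgeR) and -0.66 without WT 2 (edgeR, unadjusted p = 0.026). Near-identical sequence of other genes covers 8.97% of its longest transcript.

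The remaining inward rectifiers had overlapping groups. Kcnj2 was at 44.5, 22.0 and 40.0 CPM in WT and at 43.8, 47.2 and 35.0 CPM in Zeb2 cKO, a log2 fold change of 0.24 (SE 0.27). Kcnj12 was at 8.04, 3.44 and 7.89 CPM and at 8.07, 6.22 and 6.08 CPM (0.08, SE 0.32, and -0.05 when scaled to the cardiomyocyte markers). Kcnj11 was at 17.6, 5.37 and 13.6 CPM and at 12.5, 16.4 and 11.8 CPM (0.16, SE 0.40). In each of these genes WT 2 was the lowest library, and without it the log2 fold changes were -0.0052, -0.23 and -0.20. Kcnj14, outside the naming rule and at 0.28 to 0.73 CPM, overlapped too (-0.13, and -0.10 without WT 2, but 0.16 without Zeb2 cKO 2), and 46.3% of its longest transcript is near-identical to another gene, so its count is uncertain.

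Of the 14 Kv alpha subunits, 9 had a log2 fold change over 0.2 (15.9% of all tested genes) and 1 under -0.2 (22.6%). Without WT 2 these were 6 (14.2% of all genes then tested) and 5 (11.7%). Kcna4 (ENSMUSG00000042604, chr2:107290639-107298502, plus strand) encodes Kv1.4, which carries the slow component of the transient outward current. It was at 2.52, 1.05 and 2.81 CPM in WT 1 to 3 and at 2.96, 4.12 and 3.89 CPM in Zeb2 cKO 1 to 3. Each Zeb2 cKO library was above each WT library, although WT 3 and Zeb2 cKO 1 were close. The means were 2.13 ± 0.946 and 3.66 ± 0.617 CPM (SD, n = 3), with a log2 fold change of 0.79 (SE 0.36, unadjusted p = 0.068 and adjusted p = 0.957 from edgeR, exact permutation p = 0.1). Without WT 2 it was 0.46 (edgeR, unadjusted p = 0.046).

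The fast component of the same current is carried by the Kv4 channels. Kcnd2 was at 16.8, 6.42 and 14.3 CPM in WT and at 10.8, 19.6 and 8.15 CPM in Zeb2 cKO. The highest library was Zeb2 cKO 2 and the lowest WT 2, and the log2 fold change was 0.04 (SE 0.43), -0.28 without WT 2 and -0.08 when scaled to the cardiomyocyte markers. Kcnd3 (Kv4.3) was at 8.41, 5.56 and 8.49 CPM and at 11.7, 9.56 and 8.11 CPM (0.39, SE 0.22, and 0.21 without WT 2). Kcnd1, a Kv4 gene of low level in heart, was at 0.11, 0.93 and 0.55 CPM and at 0.18, 0.18 and 0.26 CPM, with its highest value in WT 2, and its log2 fold change went from -1.34 (SE 0.68) to -0.63 without that library. Kcnd1 reached the limit on the count sum only with its 41 counts in WT 2, so its peak there follows in part from the choice of members. The ratio of Kcna4 to Kcnd2 in RPKM, a comparison chosen after the values were seen, was 0.160, 0.174 and 0.209 in WT and 0.292, 0.225 and 0.509 in Zeb2 cKO, without overlap. This ratio was not tested, and WT 2 lay within the other WT libraries for it.

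Kcna5, a delayed rectifier subunit, was at 17.1, 2.82 and 9.71 CPM in WT and at 7.31, 10.2 and 12.7 CPM in Zeb2 cKO, a log2 fold change of 0.03 (SE 0.57) that turned to -0.41 without WT 2. Its WT libraries differed 6.04-fold from lowest to highest and its Zeb2 cKO libraries 1.74-fold. Kcng2 was at 25.1, 8.49 and 22.9 CPM and at 21.2, 20.1 and 19.3 CPM (0.10, SE 0.37). Without WT 2 all 3 Zeb2 cKO libraries were lower for Kcng2, with a log2 fold change of -0.24 (edgeR, unadjusted p = 0.045).

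Kcnc1, Kcnc2 and Kcna2 were near the lower limit. Kcnc2 (ENSMUSG00000035681, chr10:112271121-112467024, plus strand), which encodes Kv3.2, a channel of fast-spiking neurons, was at 0.45, 0.46 and 0.42 CPM in WT and at 0.50, 0.51 and 0.74 CPM in Zeb2 cKO. The groups did not overlap, but the gap between the highest WT and the lowest Zeb2 cKO library was small beside the spread in Zeb2 cKO. Its log2 fold change was 0.41 (SE 0.28, unadjusted p = 0.183 from edgeR) and 0.43 without WT 2. Kcnc1 (Kv3.1) was at 0.16, 0.16 and 0.29 CPM and at 0.54, 0.14 and 0.45 CPM (0.91, SE 0.55, and 0.76 without WT 2), and Kcna2 (Kv1.2) at 0.37, 0.39 and 0.47 CPM and at 0.86, 0.92 and 0.34 CPM (0.77, SE 0.42, and 0.73 without WT 2). Both had 1 Zeb2 cKO library below all WT libraries.

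**Figure D5:**
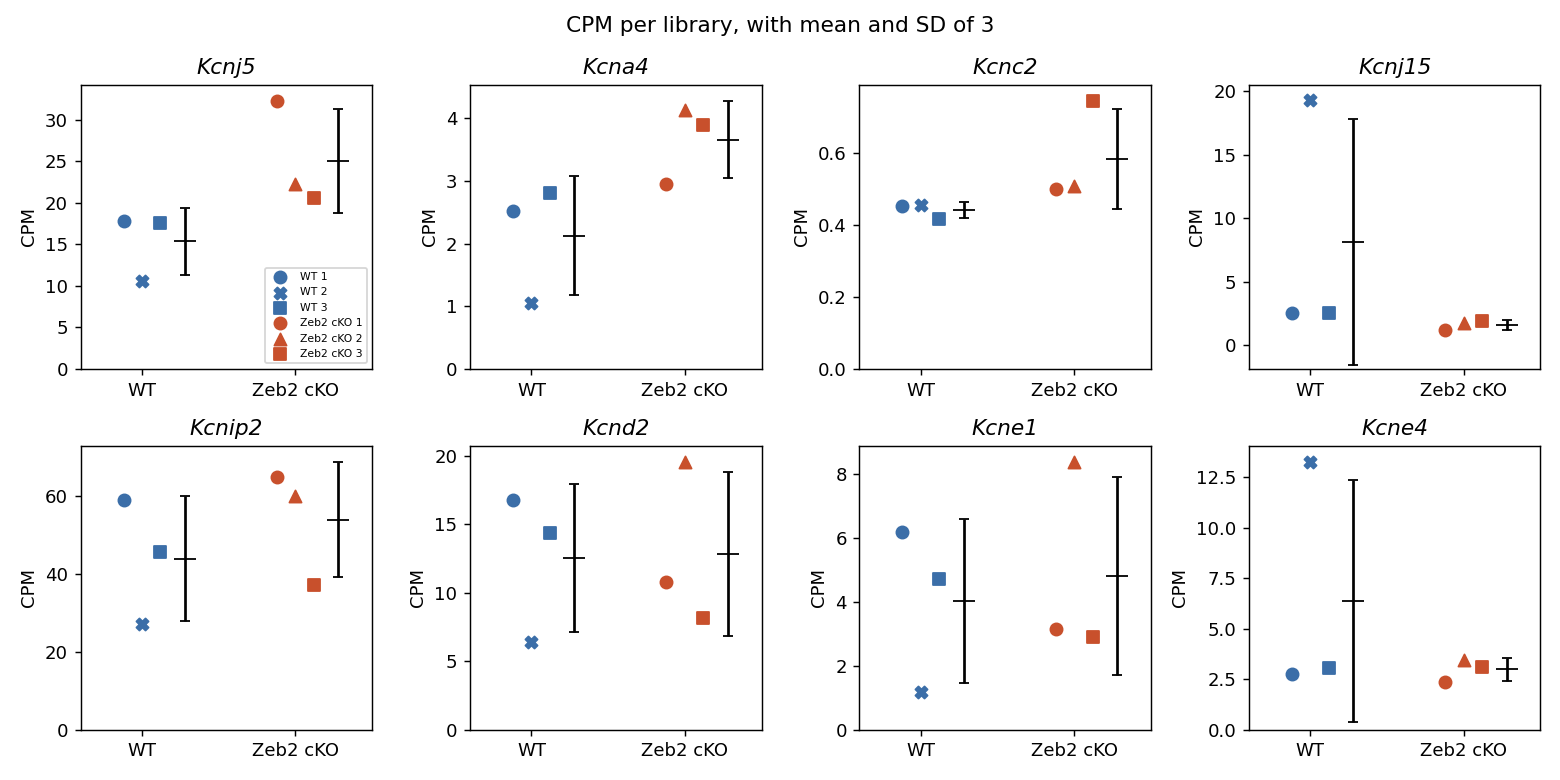
CPM (linear axes) of 8 Kcn genes in each library, with WT in blue and Zeb2 cKO in red, and the mean and SD of 3 libraries as black bars. Kcnj5, Kcna4 and Kcnc2 are higher and Kcnj15 lower in Zeb2 cKO without overlap, while Kcnip2, Kcnd2, Kcne1 and Kcne4 overlap and WT 2 (cross) is at an end of the range in each of these.

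The KCNQ and ether-a-go-go channels had log2 fold changes of 0.36 to 0.70 in all 4 members, and WT 2 was the lowest library in each. Kcnq1 was at 26.9, 6.90 and 18.1 CPM in WT and at 22.8, 24.7 and 19.1 CPM in Zeb2 cKO (0.36, SE 0.43). Kcnh2 was at 22.8, 5.81 and 16.5 CPM and at 20.5, 22.3 and 17.4 CPM (0.42, SE 0.44). The 2 genes gave the same picture, with all Zeb2 cKO libraries between WT 3 and WT 1, and without WT 2 their log2 fold changes were -0.018 and 0.033. Over the class the median went from 0.42 to 0.054 when WT 2 was left out.

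Kcne1, the accessory subunit that slows Kcnq1 channels, was at 6.18, 1.18 and 4.71 CPM in WT and at 3.14, 8.38 and 2.90 CPM in Zeb2 cKO. Zeb2 cKO 2, in which the atrial genes Myl7 and Myl4 were high, had the highest value, and WT 2 the lowest. The log2 fold change was 0.26 (SE 0.64), -0.19 without WT 2 and -0.41 without Zeb2 cKO 2. Kcnip2 was at 59.1, 27.0 and 45.8 CPM and at 64.9, 59.9 and 37.1 CPM, a log2 fold change of 0.30 (SE 0.32) and 0.04 without WT 2. The ratio of Kcnip2 to Kcnd2 and Kcnd3 together, in RPKM, was 3.59 to 4.26 in WT and 3.60 to 5.64 in Zeb2 cKO, with overlapping groups.

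Kcne4 was at 2.73, 13.3 and 3.05 CPM in WT and at 2.38, 3.46 and 3.11 CPM in Zeb2 cKO. Only WT 2 was apart, and the log2 fold change went from -1.10 (SE 0.61) to 0.05 without it. Kcne3, another single-pass subunit, was at 0.37, 0.27 and 0.39 CPM and at 0.46, 0.16 and 0.15 CPM (-0.41, SE 0.50, and -0.56 without WT 2). Its log2 fold change was -1.14 without Zeb2 cKO 1 and -0.13 without Zeb2 cKO 3. Kcnab1 (Kvβ1) was at 1.09, 1.18 and 0.89 CPM and at 1.16, 1.70 and 0.82 CPM (0.21, SE 0.31, 0.31 without WT 2, and -0.09 when scaled to the cardiomyocyte markers). Kcnab2 (Kvβ2) and Kcnip3, named because of their groups without WT 2, were at 1.19, 2.62 and 1.15 CPM against 1.26, 1.34 and 1.32 CPM, and at 0.74, 1.05 and 0.52 CPM against 0.78, 0.85 and 0.84 CPM. In both genes WT 2 exceeded every other library. The log2 fold change of Kcnab2 went from -0.35 to 0.16 without WT 2, and that of Kcnip3 from 0.09 to 0.38, while scaling to the cardiomyocyte markers turned Kcnip3 to -0.25.

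Among the K2P channels, Kcnk3 was at 64.6, 30.5 and 62.1 CPM in WT and at 64.3, 52.6 and 61.2 CPM in Zeb2 cKO, with a log2 fold change of 0.18 (SE 0.28) and -0.09 without WT 2. Kcnk2, the stretch-sensitive TREK-1 channel, was at 0.72, 0.66 and 1.07 CPM and at 0.88, 0.81 and 1.12 CPM (0.20, SE 0.28, and 0.07 without WT 2). Kcnk6 (TWIK-2) was at 3.66, 4.37 and 3.02 CPM and at 2.82, 2.93 and 3.14 CPM (-0.32, SE 0.18, and -0.17 without WT 2). Its Zeb2 cKO libraries all lay below WT 1 and WT 2, whereas WT 3 fell among them. Kcnk5 had 0.13, 0.43 and 0.21 CPM and 0.36, 0.37 and 0.19 CPM (0.21, SE 0.51, 0.82 without WT 2, and -0.18 when scaled to the cardiomyocyte markers), and Kcnk13 had 0.45, 1.78 and 0.47 CPM and 0.58, 0.60 and 0.45 CPM (-0.74, SE 0.57). Kcnk13 was high in WT 2 alone, and its log2 fold change turned to 0.23 without that library.

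In the calcium- and sodium-activated class WT 2 was the highest library for 4 members and the lowest for 2. Kcnma1, the large-conductance BK channel, was at 0.50, 3.92 and 0.49 CPM in WT and at 0.46, 0.74 and 0.69 CPM in Zeb2 cKO (-1.39, SE 0.83, and 0.33 without WT 2). Kcnt2 was at 9.29, 30.4 and 13.4 CPM and at 13.4, 11.9 and 12.2 CPM (-0.50, SE 0.41, and 0.14 without WT 2). Kcnn4, the intermediate-conductance channel of blood cells, was at 0.27, 1.16 and 0.13 CPM and at 0.16, 0.16 and 0.20 CPM and did not pass the filter on low counts. These 3 genes were highest in WT 2, the library with the highest macrophage and fibroblast marker sums, and the part of those cells in the values was not tested. Kcnn4 reached the limit on the count sum only with its 51 counts in WT 2. Its peak there follows in part from the choice of members and adds nothing to that of Kcnma1 and Kcnt2.

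The small-conductance channel Kcnn2 had the opposite order, with 4.09, 1.34 and 4.37 CPM in WT and 2.80, 2.26 and 3.48 CPM in Zeb2 cKO. WT 2 was the lowest library, and the log2 fold change went from -0.19 (SE 0.43) to -0.56 without it (edgeR, unadjusted p = 0.024). Near-identical sequence, part of it in the antisense gene A330093E20Rik, covers 16.6% of its longest transcript, so its count is uncertain. Kcnn3, of the same family, was at 0.61, 0.64 and 0.57 CPM and at 0.48, 0.46 and 0.60 CPM (-0.24, SE 0.24, and -0.20 without WT 2). Kcnmb1, the smooth muscle subunit of BK channels, was at 0.93, 0.43 and 0.55 CPM and at 0.78, 0.48 and 0.43 CPM (-0.17, SE 0.39, and -0.38 without WT 2).

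Another 5 members, outside the naming rule, had overlapping groups and log2 fold changes of 0.11 to 0.70, and of -0.27 to 0.49 without WT 2. Kcna7, a muscle Kv1 channel, was at 3.48, 1.02 and 2.42 CPM in WT and at 3.92, 3.32 and 2.23 CPM in Zeb2 cKO (0.45, and 0.10 without WT 2). Kcnn1 (1.89 to 4.24 CPM) and Kcnq5 (0.20 to 1.08 CPM) had their lowest value in WT 2, and without it their log2 fold changes went from 0.33 to 0.07 and from 0.70 to 0.32. Kcnv2, a silent Kv subunit, was at 0.50 CPM in WT 2 and 0.56 CPM in Zeb2 cKO 3 and at 1.61 to 1.87 CPM in the others, and its log2 fold change turned from 0.11 to -0.27 without WT 2. Kcna6 was at 0.36 to 1.34 CPM, with the highest value in Zeb2 cKO 2 (0.59, 0.49 without WT 2, and 0.065 without Zeb2 cKO 2). The antisense gene Gm26673 covers 40.4% of its longest transcript, and reads of the pair cannot be told apart where the counting ignores strand.

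ZEB proteins bind the E-box letters CACCTG, read as CAGGTG on the other strand, so the promoters of members were searched for both. RefSeq promoters of GRCm38.p6, from 250 bases before to 50 bases after the annotated start, were at hand for 31 members. Of these 10 held the letters (32.3%), beside 6098 of 27025 genes with a promoter (22.6%). Of the 4 members without overlap between the groups, Kcna4 and Kcnc2 held the letters and Kcnj5 and Kcnj15 did not. The matches are shown for these, with the E-box in capitals, and a match is no evidence of binding.
Kcna4 (chr2:107290339-107290359, plus strand): agtggCACCTGtgctgtggtc
Kcnc2 (chr10:112269793-112269818, plus strand): agatccctgtCACCTGtaagcagact
Kcna5 (chr6:126535662-126535687, minus strand): tgtgcattccCAGGTGatctgagatc
Kcnj12 (chr11:61065554-61065579, plus strand): ggagatggttCACCTGgtgttcctct
Kcna5 and Kcnj12 are added as members of the 12 highest levels that held the letters, and their log2 fold changes were 0.03 and 0.08, and -0.41 and -0.23 without WT 2.

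Genes outside the family were read from fixed lists. Of 18 partners of potassium channels, 13 were tested, 0 passed the adjusted threshold, and 2 were under -0.2 and 2 over 0.2, with a median log2 fold change of 0.05 (-0.10 without WT 2). Abcc9, the regulatory subunit that joins Kcnj11 in the ATP-sensitive channel, was at 287, 125 and 230 CPM in WT and at 287, 294 and 236 CPM in Zeb2 cKO. Of 9 transcription factors of cardiac potassium currents, 8 were tested and 0 passed, with 1 under -0.2, 2 over 0.2 and a median of 0.05 (-0.07 without WT 2). Irx4 was at 14.1, 5.58 and 13.9 CPM and at 19.9, 15.3 and 15.5 CPM, without overlap (0.59, SE 0.34, unadjusted p = 0.128 from edgeR, and 0.27 without WT 2). Of 16 potassium pumps and cotransporters, 13 were tested and 0 passed, with 2 under -0.2, 2 over 0.2 and a median of 0.08 (0.06 without WT 2).

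The other marker lists gave 0 calls as well. Median log2 fold changes were 0.16 for 10 endothelial, 0.07 for 10 smooth muscle and pericyte, 0.11 for 6 conduction system and 0.06 for the 5 tested of 8 nerve and Schwann cell markers. Without WT 2 they were 0.023, 0.00026, 0.049 and 0.32 in this order. For adipocytes 2 of 8 markers were tested (median 0.89, and 0.63 without WT 2) and for T cells 1 of 8 (-0.36, and -0.027 without WT 2). Of the 5 atrial markers Bmp10 was at 0 in all libraries. The other 4 had a median of 1.81 (1.47 without WT 2), with Myl7, Myl4 and Sln highest in Zeb2 cKO 2. Nppa alone of them was lower in Zeb2 cKO without overlap, at 337, 716 and 309 CPM in WT and 189, 131 and 188 CPM in Zeb2 cKO (log2 fold change -1.42, unadjusted p = 0.0058 and adjusted p = 0.957 from edgeR, and -0.93 without WT 2).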

How the data were processed

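RNA depleted of ribosomal RNA was sequenced from heart tissue in 3 WT and 3 Zeb2 cKO libraries, each taken as 1 replicate of the group in its label. According to the methods, the authors made stranded libraries, aligned single-end reads with STAR and counted them on Gencode M4, and they deposited raw counts per gene (GRCm38). The STAR version, the strand option and the handling of reads with several positions are not given in the sources used here. Every count column belonged to a sample, with 0 unmatched.

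Symbols, coordinates and lengths came from Gencode M21 by gene identifier. Counts were normalised with TMM in edgeR 4.0.16 (R 4.3.3), filtered with filterByExpr defaults and tested for genotype (glmQLFit, glmQLFTest) with a prior count of 0.125. Single values were compared with two-sided exact permutation tests. Near-identical sequence was searched with BLAST 2.17.0 at an identity of at least 95% over at least 75 bases. In simulated counts for this comparison (14896 genes tested), 34 of 99 genes with a log2 change of 1 passed in edgeR, as did 100 of 100 with a log2 change of 2 and 11 of 14697 with none. These shares belong to the simulated counts alone. Among the measured genes, Kcnj15 had a log2 fold change of -2.34 (SE 0.84) and an adjusted p of 0.957 from edgeR. A measured change of this size therefore need not pass. At the depth of 37288174 counts or more per library, counting error matters for genes of few counts, and the spread between libraries sets the precision elsewhere. The labels do not say whether replicates came from separate mice, so p-values measure the spread between these samples.

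Members were chosen by symbol and count sum. Of the family, 2 genes are not reported here, and 3 members enter the counts, medians and class sums but are neither named nor drawn. The members and lists were chosen with earlier results of these data known. Named were the 12 members of the highest mean RPKM, the 5 lower and 5 higher members with the smallest p, members without overlap and a list of heart channel genes. Kcnt2 and Kcnk13 are described although they fall outside this rule. The lists were cell type markers (cardiomyocyte, macrophage, fibroblast, endothelial, smooth muscle and pericyte, T cell, atrial, conduction, adipocyte, nerve), channel partners, transcription factors, and pumps and cotransporters. Alternatives covered normalisation, filtering, DESeq2 1.42.0, mitochondrial genes, the prior count, the replicate number and leaving out each library.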

Additional observations from a re-analysis of the deposited data

How the results depend on the processing

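Under the 7 other settings of normalisation, filter, test and prior count, the members called remained at 0, and 0 of the named members turned their direction. DESeq2 called 1 gene of all genes, which was higher in Zeb2 cKO and no member. Scaling to the cardiomyocyte markers, added after seeing the data, left 12 members over 0.2 in place of 22, 14 under -0.2 in place of 10 and 2 members without overlap in place of 4 (5.19%, 59.2% and 2.71% of all tested genes), and it turned Kcnip3 to -0.25, Kcnv2 to -0.0026, Kcnab1 to -0.087, Kcnj12 to -0.051, Kcnk5 to -0.18 and Kcnd2 to -0.081 on the log2 scale. The cause was not tested.

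Leaving out each library in turn gave 13 to 28 members over 0.2 (14.2% to 26.5% of all genes then tested), 10 to 13 under -0.2 (11.7% to 28.8%), 6 to 10 members without overlap (10.9% to 23%) and a median of the members of 0.033 to 0.37, where WT 2 gave the lowest. The log2 fold changes that turned spanned -0.48 to 0.21 for Kcnmb1, -0.56 to 0.075 for Kcnn2, -0.095 to 0.82 for Kcnk5, -0.018 to 0.83 for Kcnq1, -0.55 to 0.16 for Kcnab2, -0.41 to 0.71 for Kcne1, -1.45 to 0.046 for Kcne4, -1.82 to 0.33 for Kcnma1, -0.81 to 0.14 for Kcnt2, -0.20 to 0.52 for Kcnj11, -0.23 to 0.27 for Kcnj12, -0.0052 to 0.44 for Kcnj2, -0.038 to 0.41 for Kcnj3, -1.06 to 0.23 for Kcnk13, -0.090 to 0.36 for Kcnk3, -0.41 to 0.69 for Kcna5, -0.40 to 0.31 for Kcnd2, -0.24 to 0.37 for Kcng2, -0.090 to 0.44 for Kcnab1, -0.13 to 0.38 for Kcnip3, -0.48 to 0.16 for Kcnj14 and -0.27 to 0.49 for Kcnv2.

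Replicate numbers 1 to 3 occur in both groups, but the samples share only a number: the deviations of samples with the same number correlated by 0.088, -0.14 and -0.087, and 0 of the 3 numbers correlated best with their own. With a replicate block 0 members were called, 25 were over 0.2 (18% of all tested genes) and 11 under -0.2 (21%), and the median was 0.25. Few counts limit members such as Kcnk5 and Kcne3, with 76 and 79 counts over the 6 libraries, and 3 libraries a group limit every comparison. A low RPKM need not mean few counts, as Kcnma1 had 302 counts at a mean of 0.067 RPKM.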

Other observations

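The Kcn genes under the limit of 60 counts were not tested. Kcnh1, an ether-a-go-go channel, had 6, 22 and 6 counts in WT 1 to 3 and 12, 3 and 6 counts in Zeb2 cKO 1 to 3. Kcna3 (Kv1.3), a channel of lymphocytes and macrophages, had 4, 19 and 2 counts in WT and 2, 4 and 10 counts in Zeb2 cKO. Kcnk1 (TWIK-1) had 10 counts in WT 2 and at most 3 in every other library. These 3 genes had their highest value in WT 2. Kcng4, a silent Kv subunit, had 9, 2 and 1 counts in WT and 7, 12 and 10 counts in Zeb2 cKO, and Kcnt1, the relative of Kcnt2, had 4, 3 and 10 and 10, 15 and 7 counts. Kcne2, which encodes a single-pass accessory subunit, and Kcnj1, the renal inward rectifier ROMK, had 0 counts in all 6 libraries, which allows up to 3 counts per library, or 0.056 to 0.080 CPM.

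Within a group, the members varied in different libraries. In Zeb2 cKO the highest and lowest library of Kcne1 differed 2.89-fold and those of Kcnd2 2.40-fold, against 1.22-fold for Kcnk3. Kcnd2 and Kcne1 were both highest in Zeb2 cKO 2. The ratio of Kcne1 to its partner Kcnq1 in RPKM was 0.292, 0.219 and 0.332 in WT and 0.175, 0.432 and 0.194 in Zeb2 cKO, so that the lowest and the highest ratio were both found in Zeb2 cKO.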
